A study of Capsicum annuum with 78 samples.

Results

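The 150 genes described here stood higher at 12 h than at 0 h and 24 h in water-sprayed pepper leaves, and stayed within a fixed distance of that course in leaves sprayed with any of 4 hormones. They were taken from a table of read counts for 35884 genes in 78 RNA-seq libraries. Counts were scaled to CPM, the counts that a library would hold at a fixed common total, put on the log2(CPM + 1) scale and averaged over the 3 libraries of a group. Of all genes, 17566 had a mean of at least 1 CPM in the 18 mock libraries. Of these, 5174 lay within 0.7 log2 units of mock in each of the 20 pairs of a hormone and a time point, and are called bounded genes below. Bounded genes were ranked by mock at 12 h minus the higher of mock at 0 h and mock at 24 h, and the 150 largest scores were taken. All 150 passed the filter on low counts in the main fits described below, that of mock and those of the 4 hormones.

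Leaves came from Capsicum annuum cv. Bukang plants 6 weeks old, at the stage of 6 true leaves, grown with 16 h of light and 8 h of dark. The spray was distilled water for mock, sodium salicylate at 5 mM for SA, methyl jasmonate at 100 μM for JA (MeJA in the sample titles), ethephon at 5 mM for ET, and racemic abscisic acid at 100 μM for ABA. Leaf 3 or 4 was taken after 1, 3, 6, 12 or 24 h, and for mock also at 0 h, with 3 biological replicates per group and the leaves of 4 plants pooled in each. Each treatment was incubated separately, so treatment and incubation cannot be told apart. The clock hour of spraying is not given in the sources used here. Mock leaves at 12 h were therefore both 12 h from spraying and 12 h from the starting hour of the light cycle, and these cannot be told apart, while 0 h and 24 h shared the same hour of that cycle.

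Leaf cells carry a circadian clock, in which transcription factors of morning and evening repress each other in turn, and light resets it each day. Clock and light together give many leaf transcripts a daily rise and fall, among them genes of photosynthesis, starch turnover and cell wall growth. SA, JA, ethylene (which ethephon releases inside the tissue) and ABA each act through their own receptors and transcription factors on defence, wounding, ripening and water stress genes. A transcript can thus follow the day, a hormone, or both. None of the 35884 identifiers (CM334 annotation v.1.6) matched an entry of the RefSeq genes of assembly UCD10Xv1.1. No member can therefore be given a gene name, a function or a sequence, leaf markers could not be checked, and the genes are described by their time courses.

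Library totals ranged from 4470356 to 8851726 counts, with a median of 6618439. The floor of 3 counts lay between 0.339 and 0.671 CPM, for counting error only. Of the 150 members, 95 had at least 10 counts in every library, 12 had a library at 0 counts, and 44 had a mean below 5 CPM in mock. The mean mock level of members lay between 1.06 and 778.4 CPM. These levels are not divided by gene length and are not compared between genes. In leaf tissue as a whole, more cells with a transcript and more transcript per cell cannot be told apart.

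Scores ran from 3.88 down to 1.04 log2 units, which is a 14.7-fold to 2.05-fold difference on the scale of CPM + 1, with a median of 1.195. Only 5 members scored at least 2, and 22 at least 1.5, while 78 lay under 1.2. The members at the edge scored 1.0369 (rank 149) and 1.0363 (rank 150), and the nearest genes outside scored 1.0356 and 1.0339. At the bound, the largest difference from mock of any member was 0.6999. The smallest that kept out a gene with a score as high was 0.7005, and 109 such genes had their largest difference between 0.7 and 0.8. The edges thus cut through a continuous range of values. The bound removed most genes with this time course. Of 1338 genes with a score at least as high as that of the last member, 150 (11.2%) lay within it, beside 29.5% of all 17566 genes.

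Part of the difference was shared by most genes. In mock at 12 h, the median of all 17566 genes was 0.32 log2 units above 0 h, and the 10 most abundant genes took 7.21% to 8.32% of counts in the mock libraries at 12 h against 9.49% to 9.91% at 0 h. Their part in the shift was not tested. The members stood a median of 1.28 above 0 h, which is 0.96 more than the median gene. After TMM scaling of the totals, which takes most genes as unchanged between libraries, the median gene moved by 0.01 and the members by 0.96. All 150 members remained above their 0 h mean at 12 h on that scale, with scores of at least 0.63. TMM scales all genes of a library alike, and the rule chose on mock at 0, 12 and 24 h. The member values thus describe the list and test nothing. Values below are on the log2(CPM + 1) scale with library totals unless edgeR is named, and this shared shift is part of them.

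In mock, the level of the members was followed in each library as the median over the 150 genes of the difference from their own 0 h mean. At 1 h, the 3 libraries stood at -0.01, 0.06 and 0.07. At 3 h they stood at 0.27, 0.36 and 0.39, and at 6 h at 0.85, 0.83 and 0.87. The libraries of 1, 3 and 6 h thus stood in that order with no overlap. At 12 h the libraries stood at 1.31, 1.22 and 1.32. At 24 h they had returned to -0.22, -0.06 and 0.05, the widest spread of the mock groups. Every mock library at 12 h lay above every mock library at 0 h and at 24 h for 150 of 150 members, beside 35.2% of the 17566 genes. The rule used those libraries, so this describes the list and tests nothing.

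**Figure D1:**
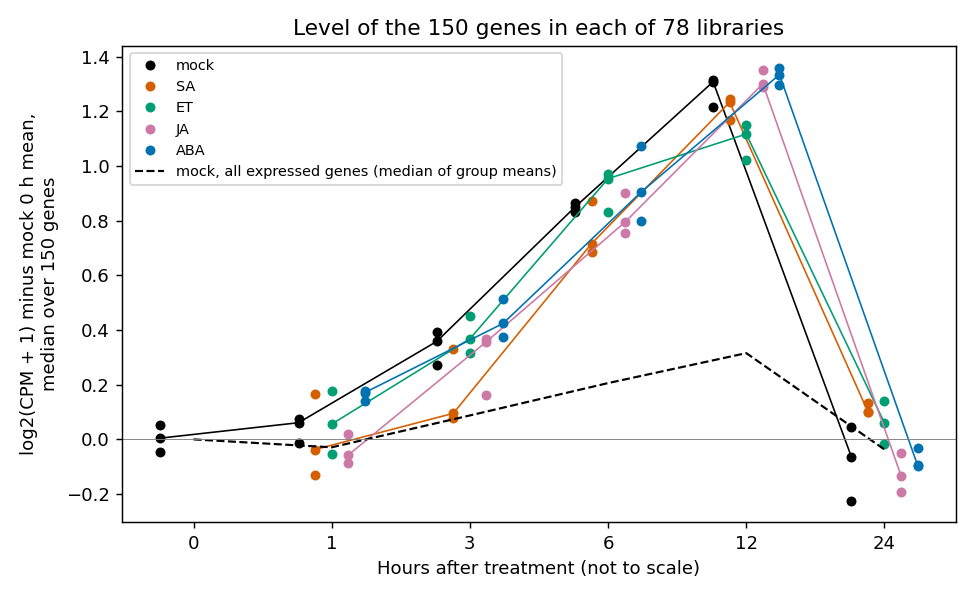
Points show single libraries, with hours after treatment on the x axis and, on the y axis, the median over the 150 genes of log2(CPM + 1) minus the gene's mock 0 h mean. Solid lines join group medians and the dashed line gives the median of all 17566 genes in mock. The 15 libraries at 12 h lie between 1.02 and 1.36, and the 48 libraries at 0, 1, 3 and 24 h all lie at or below 0.52.

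The rule did not use the steps between 1, 3 and 6 h in mock, other than through the bound and the CPM minimum, so these were tested. All 18 mock libraries entered a single fit of the quasi-likelihood test of edgeR, and a gene was called when its Benjamini-Hochberg adjusted p over all 17788 genes tested was under 0.05. From 1 h to 6 h, 93 of 150 members (62.0%) were called higher and 3 lower. Among all genes tested, 17.7% were called higher and 19.8% lower. Among the bounded genes tested, 13.6% were called higher. The median log2 fold change of members was 0.74, against 0.02 over all genes tested. The called rises ran from 0.38 to 2.84.

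The later of the early steps carried more of the calls. From 3 h to 6 h, 68 members were called higher and 2 lower, beside 11.0% and 12.6% of all genes. The median log2 fold change was 0.46 for members and 0.01 for all genes. From 1 h to 3 h, 24 members were called higher and 6 lower, beside 5.46% and 8.95% of all genes, with a median of 0.25 for members. Of the members, 18 were called higher in both successive steps, 50 only in the step from 3 h to 6 h and 6 only in the step from 1 h to 3 h. Another 45 were called in none of the 3 contrasts, which does not show that they did not change. The same patterns were not counted over all genes tested, so they describe the list alone. These counts fell when a replicate number was left out of every group. Without replicate 1, 12 members were called higher from 1 h to 3 h and 37 from 3 h to 6 h. Without replicate 2 it was 16 and 42, and without replicate 3 it was 16 and 54. Smaller groups also give fewer calls, so this does not show that the counts lean on 1 replicate. Without any 1 mock library of 1, 3 or 6 h, 19 to 25 were called higher from 1 h to 3 h and 49 to 67 from 3 h to 6 h.

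**Figure D2:**
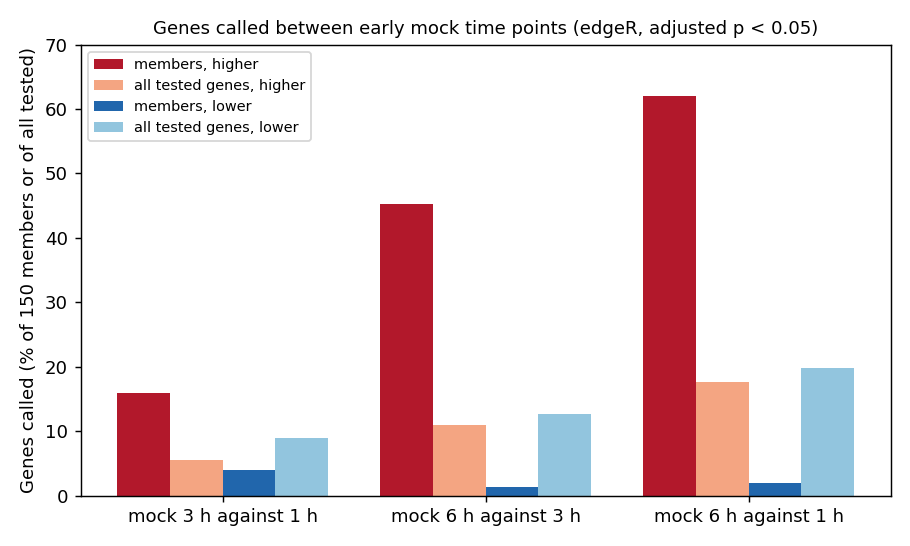
Bars give the percentage of genes called higher or lower (edgeR, adjusted p under 0.05) between early mock time points, for the 150 members and for all 17788 genes tested. From 1 h to 6 h, 62.0% of members and 17.7% of all genes were called higher, and 2.0% and 19.8% lower.

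Members differed in how much of the difference was present early. At 6 h, a median of 65.2% of the difference between 0 h and 12 h was present on the log2 scale, with quartiles of 44.0% and 89.4%. At 3 h the median was 26.4%. For 102 members more than 50% was present at 6 h, and for 31 members between 25% and 50%. The remaining 17 members had less than 25% at 6 h. This split rests on the mock libraries of 0, 6 and 12 h, so the steps and calls of its classes follow in part from it and are given as a description. From 1 h to 6 h, edgeR called 0 of these 17 higher and 2 lower, beside 17.7% and 19.8% of all genes. At an unadjusted p under 0.05, 1 of them was higher, and DESeq2 called 0 higher. Among these 17 late members, the median step was 0.18 from 3 h to 6 h and 1.12 from 6 h to 12 h. Among the 102 early members it was 0.65 and 0.29.

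The highest mock mean fell at 12 h for 121 members, at 6 h for 28 and at 1 h for 1. The label of a 12 h peak therefore did not hold for 29 members. The rule did not compare 12 h with 1, 3 or 6 h. The 28 members with a 6 h maximum exceeded their 12 h mean by a median of 0.15 and by at most 1.04. With TMM-scaled totals the 12 h maximum held for 114 members and the 6 h maximum for 34. All 3 mock libraries of 12 h lay above all 3 of 6 h for 97 members, beside 30.4% of all 17566 genes. The score favoured high values in the mock libraries of 12 h, so this count describes the list and tests nothing.

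Return to the starting level was close for most. At 24 h, 103 members were within 0.25 of their 0 h mean, 15 were more than 0.5 below it and 1 was more than 0.5 above it. The differences ran from -1.61 to 0.65 with a median of -0.06. Mock 24 h was the higher of the 2 reference groups for 55 members and mock 0 h for 95.

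**Figure D3:**
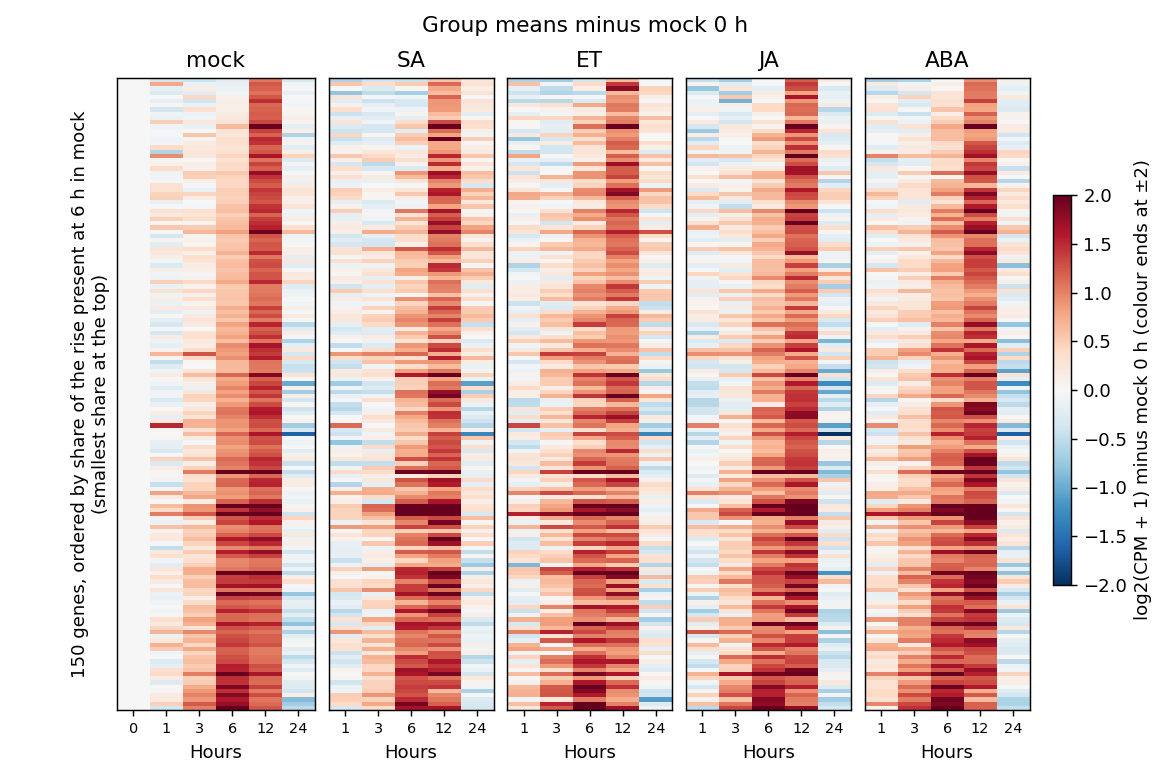
Each of 150 lines is a member, ordered by the share of its rise present at 6 h in mock, and each column is a group of 3 libraries. Colour gives the group mean on the log2(CPM + 1) scale minus mock 0 h, from -2 to 2. In mock, the 17 late members at the top have a median step of 1.12 from 6 h to 12 h, and the 102 early members at the bottom one of 0.29.

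The hormone libraries followed a like course, to which the bound of 0.7 tied them, so their values are a description. At 12 h, the member level was 1.17 to 1.24 in the 3 SA libraries and 1.02 to 1.149 in those of ET. In the JA libraries it was 1.29 to 1.35, and in the ABA libraries 1.30 to 1.36. The ET libraries lay below all other libraries of that hour. At 24 h, the levels were 0.10 to 0.13 with SA and -0.02 to 0.14 with ET. They were -0.19 to -0.05 with JA and -0.10 to -0.03 with ABA. The SA libraries at 24 h thus lay above the 3 mock libraries, and those of the other hormones overlapped with them. This order was not particular to the members. The same median over all bounded genes was 0.12 to 0.14 with SA at 24 h and -0.10 to 0.08 in mock. The median difference of SA from mock at 24 h was 0.22 for members and 0.19 for all genes above the CPM minimum. By edgeR, the median log2 fold change of members was 0.08. At 3 h, the SA libraries stood at 0.33, 0.10 and 0.08, of which the last 2 lay below all mock libraries of that hour. The bounded genes lay below mock in those 2 libraries as well, at -0.01 and -0.05 against 0.05 to 0.11.

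From 12 h to 24 h, the group mean fell for 150 of 150 members with each hormone, a fall that the score and the bound together favoured. Most genes fell as well. Of all 17566 genes, 12684 fell after SA, 14061 after ET, 13807 after JA and 13378 after ABA. The median change of the members was -1.35 in mock, -1.01 after SA, -1.06 after ET and -1.40 after both JA and ABA. For all 17566 genes it was -0.39 in mock, -0.33 after SA, -0.39 after ET and -0.49 after both JA and ABA. All 3 libraries of 12 h lay above all 3 of 24 h for 144 members after SA (49.7% of all 17566 genes) and 137 after ET (54.0%). After JA this held for 148 members (55.1%), and after ABA for 147 (58.7%). In mock and all 4 hormones together it held for 128 members, with mock also above 0 h, beside 18.4% of all 17566 genes.

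The hour of the highest mean was 12 h for 130 members and 6 h for 19 after SA, and 12 h for 104 and 6 h for 42 after ET. After JA the counts were 133 and 16, and after ABA 126 and 23. In 88 members the highest mean of 1 to 24 h lay at 12 h in mock and in all 4 hormones, and in 145 it lay at 6 h or 12 h in all 5. From 6 h to 12 h, the members changed by a median of 0.48 in mock and after SA, 0.47 after JA, 0.44 after ABA and 0.23 after ET. The median of all 17566 genes changed by 0.08 in mock, 0.19 after SA, 0.21 after JA, 0.22 after ABA and 0.18 after ET. With TMM-scaled totals the 12 h maximum held for fewer members, 81 after ET, 101 after SA, 102 after ABA and 110 after JA. The 12 h libraries lay wholly above the 6 h libraries for 89 members after SA (34.6% of all 17566 genes) and 66 after ET (36.0%). They did so for 83 after JA (34.2%) and 91 after ABA (39.9%). The bound also tied the late and early members to their mock course. The 17 late members had median steps from 6 h to 12 h of 0.79 (ABA) to 0.95 (SA), and the 102 early members of 0.07 (ET) to 0.37 (JA).

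The members were chosen as insensitive to hormones, and the bound still allowed differences of up to 0.7 on the log2(CPM + 1) scale. The added 1 shrinks the differences of genes with low counts on that scale. The largest difference of a member over the 20 pairs had a median of 0.60. It reached 0.5 for 128 members and stayed under 0.3 for 1. It occurred with ET for 50 members, with SA for 45, with JA for 28 and with ABA for 27. Each hormone was then compared with mock by edgeR in a fit of the 15 hormone and 15 mock libraries of 1 to 24 h. The same mock libraries served all 4 comparisons. Fold changes by edgeR are not on the scale of the bound and could exceed 0.7. Over the 20 pairs, the largest absolute log2 fold change of a called member ran from 0.52 (JA at 24 h) to 1.83 (JA at 1 h). With SA, 84 members were called at 1 or more of the 5 time points, beside 67.1% of all genes. With ET it was 112 members, beside 83.0%. With JA it was 57 members, beside 44.6%, and with ABA 53 members, beside 46.0%. In all, 27 members were called with no hormone, beside 9.11% of the 17984 genes tested in all 4 fits, and 23 with all 4, beside 27.5%. The name hormone-insensitive refers here to the bound on the size of the difference. Since the bound chose members on this contrast, nothing is read from how these shares compare with those of all genes.

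The calls were unevenly spread over the time points. The shares of all genes given here count calls in both directions. They therefore do not show whether a lean to higher or lower calls was particular to the members. At 12 h, ET gave 6 members higher and 64 lower than mock, with 58.1% of all genes called. SA gave 3 higher and 54 lower at 12 h, with 47.2% of all genes called. JA gave 3 higher and 27 lower (23.4% of all genes called), and ABA 6 higher and 21 lower (27.1%). Mock at 12 h entered both the score and these differences, as did mock at 24 h for the counts of that hour. The median edgeR log2 fold change of members at 12 h was -0.37 with ET, -0.30 with SA, -0.15 with JA and -0.07 with ABA. On the scale the rule used, the medians were smaller, at -0.21, -0.08, -0.01 and 0.06. The sign for ABA thus depended on the scaling.

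Other hours showed other balances, and the shares of all genes again count both directions. With ET, 25 members were higher and 11 lower at 1 h (36.7% of all genes called), 26 and 13 at 3 h (45.7%), 24 and 21 at 6 h (52.6%), and 29 and 14 at 24 h (47.8%). These are counts of calls, and the median edgeR log2 fold change of members at 6 h with ET was -0.01. With SA, 2 were higher and 4 lower at 1 h (13.6%), 6 and 17 at 3 h (28.8%), 9 and 37 at 6 h (40.8%), and 3 and 5 at 24 h (15.5%). With JA, 2 were higher and 14 lower at 1 h (12.7%), 6 and 11 at 3 h (17.3%), 1 and 3 at 6 h (10.1%), and 3 and 3 at 24 h (11.9%). With ABA, 14 were higher and 9 lower at 1 h (21.8%), 8 and 0 at 3 h (10.4%; lower ones numbered 6 at an unadjusted p under 0.05 and 0 by DESeq2), 7 and 1 at 6 h (6.40%), and 3 and 3 at 24 h (9.43%). When replicates were left out in turn, the counts over all hours fell to 18 to 37 members with JA and 12 to 32 with ABA.

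**Figure D4:**
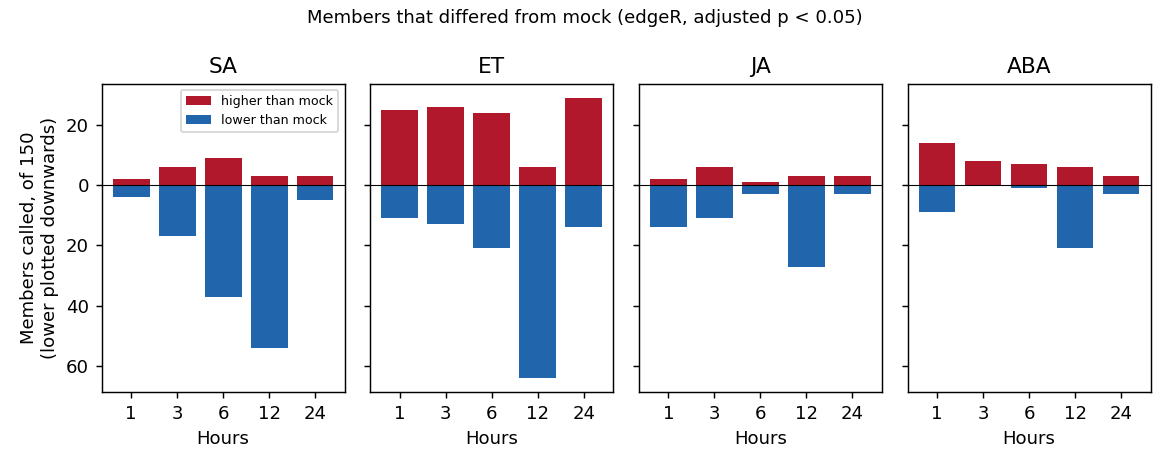
Bars give the number of the 150 members called higher (upwards) or lower (downwards) than mock by edgeR at each time point, with hours on the x axis and one panel per hormone. The longest downward bars are at 12 h, with 64 members for ET and 54 for SA.

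Among the 95 members with at least 10 counts in every library, CA.PGAv.1.6.scaffold836.53 had the largest score (3.15, rank 3 of 150). In mock it had 14.6, 17.8 and 15.96 CPM at 0 h, 16.5, 16.5 and 17.2 at 1 h, 32.1, 38.2 and 31.5 at 3 h, 84.1, 84.3 and 92.4 at 6 h, 162.3, 157.7 and 134.3 at 12 h, and 11.95, 11.5 and 10.2 at 24 h. The libraries of 3, 6 and 12 h each lay above all those of the hour before, and at 24 h it lay below all libraries of 0 h. At 12 h its mean was 151.5 ± 15.04 CPM (SD, n = 3), which was 9.39 times the 0 h mean. From 1 h to 6 h its log2 fold change was 2.16 ± 0.12 (SE, adjusted p = 2.16e-13, edgeR), and it was called higher in both steps. At 12 h it had 104.3 ± 5.07 CPM after ET, 121.7 ± 11.96 after SA, 130.3 ± 10.6 after JA and 157.8 ± 3.40 after ABA (SD, n = 3 each). With ET its 6 h mean was 105.3 ± 10.8 CPM (SD, n = 3), and the libraries of 6 h and 12 h overlapped. Its largest difference from mock in the rule was -0.65, with SA at 3 h.

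The next in this order, CA.PGAv.1.6.scaffold426.34, scored 2.73 (rank 4 of 150). In mock it had 5.49, 10.4 and 8.91 CPM at 0 h, 11.5, 11.7 and 16.2 at 1 h, 16.1, 13.5 and 17.98 at 3 h, 39.6, 40.9 and 46.1 at 6 h, 64.2, 59.9 and 58.4 at 12 h, and 6.79, 8.44 and 10.1 at 24 h. The libraries of 1 h and 3 h overlapped, and so did those of 0 h and 24 h. The fold change from 1 h to 3 h was 0.18 ± 0.17 (log2, SE, adjusted p = 0.584, edgeR), and from 3 h to 6 h it was 1.30 ± 0.15 (adjusted p = 5.60e-07, edgeR). At 6 h it had 65.9 ± 3.75 CPM with SA and 60.5 ± 3.88 with ET (SD, n = 3 each), against 42.2 ± 3.40 in mock. At 12 h its mean was 58.4 CPM after ET, 60.9 in mock, 70.4 after SA, 71.7 after JA and 81.6 after ABA.

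A different course was that of the members that fell between 1 h and 6 h. Only 3 members were called lower from 1 h to 6 h, all with at least 10 counts in every library, and the 2 with the largest falls are given. CA.PGAv.1.6.scaffold625.58 (rank 60) had 8.65, 11.3 and 13.1 CPM in mock at 0 h, 19.5, 17.5 and 20.2 at 1 h, 8.77, 8.35 and 13.5 at 3 h, 9.87, 9.09 and 9.81 at 6 h, 28.6, 24.6 and 28.1 at 12 h, and 10.3, 11.7 and 8.63 at 24 h. It was thus high at 1 h and at 12 h, with no overlap between those libraries and the ones of 0, 3, 6 and 24 h. Its log2 fold change from 1 h to 6 h was -1.21 ± 0.18 (SE, adjusted p = 4.32e-06, edgeR). After JA at 1 h it had 13.7, 11.7 and 9.21 CPM, all below the mock libraries of that hour, and after ABA 13.4, 11.3 and 12.8. At 12 h its mean was between 24.9 CPM with SA and 30.9 CPM with ET.

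CA.PGAv.1.6.scaffold1388.10 (rank 48) had 12.8, 12.2 and 12.9 CPM in mock at 0 h, 38.9, 36.5 and 37.2 at 1 h, 23.2, 18.5 and 21.3 at 3 h, 22.0, 27.0 and 24.2 at 6 h, 31.2, 30.6 and 36.3 at 12 h, and 5.61, 8.82 and 8.10 at 24 h. Here the libraries of 1 h were higher than those of 12 h, and 24 h lay below 0 h. Its log2 fold change from 1 h to 6 h was -0.84 ± 0.12 (SE, adjusted p = 5.47e-06, edgeR). At 1 h its mean in mock was 37.6 ± 1.24 CPM, against 33.5 ± 3.43 after ET, 28.9 ± 1.63 after SA, 26.4 ± 1.28 after JA and 25.5 ± 4.43 after ABA (SD, n = 3 each). With SA at 3 h it stood nearest to the bound, at -0.70 from mock.

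**Figure D5:**
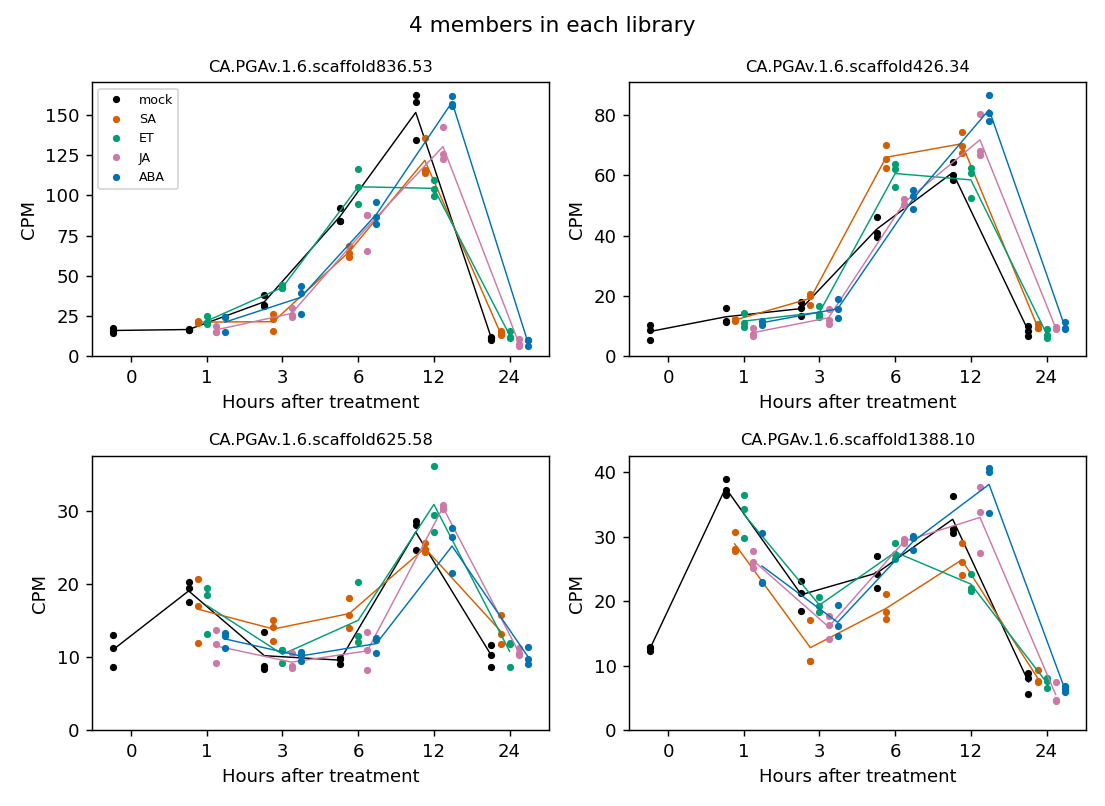
CPM of 4 members (y axis, from 0) against hours after treatment (x axis, not to scale), with a point per library and lines through group means. The upper panels show members that climbed to 12 h, at 151.5 and 60.9 CPM in mock. The lower panels show members that were also high at 1 h, at 19.1 and 37.6 CPM in mock.

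A mirrored rule, mock 12 h below the lower of 0 h and 24 h, gave 150 bounded genes, of which 119 had their lowest mock mean at 12 h, 29 at 6 h and 2 at 3 h. Their median difference of 12 h from 0 h was -0.70. Of it, a median of 63.1% was present at 6 h and 23.7% at 3 h, against 65.2% and 26.4% in the members. Between 1 h and 6 h, 106 of the 149 tested were called lower by edgeR, beside 19.8% of all genes. At 12 h their median difference of ET from mock was 0.19, against -0.21 for the members. Both lists were chosen on mock at 12 h, and the difference between them was not tested.

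Membership depended in part on single libraries. With any 1 of the 9 mock libraries of 0, 12 and 24 h left out, 124 to 135 of the 150 members were chosen again, and 60 were chosen in all 9 cases. With a replicate number left out of every group, 79 to 85 were chosen again, and most of the others then lay outside the bound or under the CPM minimum.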

How the data were processed

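Strand-specific poly(A) libraries were sequenced as paired reads. Per the submitters' processing notes, reads were checked with FastQC 0.11.8, trimmed with cutadapt 1.15 and Trimmomatic 0.38 and aligned with HISAT2, against CM334 v.1.6. HTSeq 0.11.2 gave the counts per gene that the authors deposited, with no normalization. Library totals, 4470356 to 8851726, limit the precision of low genes. Strand and multi-mapping settings are not given in the sources used here, so reads of near-identical or overlapping genes may be shared. Bukang reads were mapped to another cultivar.

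All 78 columns carried a sample title, and 0 columns were left without a sample. CPM used column totals. Tests used edgeR 4.0.16 in R 4.3.3 (filterByExpr, TMM, glmQLFit, glmQLFTest), with Benjamini-Hochberg adjustment over all genes of a contrast and 0.05 as the threshold. The edgeR fits were tested on simulated data, with 200 changed genes above a count minimum. From mock 1 h to 6 h, 197 were recovered at a change of 1 log2 unit and 92 at 0.5. For SA against mock at 12 h, 76 were recovered at 0.5, so many changes of that size were missed. Recovery of genes below the count minimum was not measured, and the simulated libraries held no shared shift between hours. No 2 libraries were identical, and the 78 replicate pairs differed by chi-square values of 1.99 to 22.9 per degree of freedom. Python 3.11.15, numpy 2.4.6 and pandas 2.3.3 were used.

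Alternatives were RLE scaling, DESeq2 1.42.0, other count filters, the replicate number as a block, a joint fit of 78 libraries, other settings of the selection rule and omission of replicates. The members and lists were chosen with earlier results of these data known. At most 4 identifiers were named: the 2 largest scores and the 2 largest falls from mock 1 h to 6 h (called lower), among members with at least 10 counts in every library.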

Additional observations from a re-analysis of the deposited data

How the results depend on the processing

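Of 242 alternative values, 213 kept within 1.5 times (counts), their replicate spread (medians) or their sign and side of 0.05 (named genes). RLE scaling, DESeq2, no filter and a minimum of 10 counts in every library left all counts of called members within 1.5 times. So did the joint fit of 78 libraries for the mock counts. The minimum of 10 counts left out members with lower counts, so fewer members were tested under it. Same-numbered hormone and mock libraries did not deviate together (correlations -0.22 to 0.21), and 25 of 60 hormone libraries were closest to their own number. With the replicate block, 25, 71 and 92 members were called higher from 1 to 3 h, 3 to 6 h and 1 to 6 h, and 81, 114, 56 and 52 were called with SA, ET, JA and ABA.

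Under the added demand of a 0.5 log2 change, 79 members were called with ET, 54 with SA, 36 with JA and 21 with ABA. The share of all genes under this demand was not counted. Leaving out replicates or single libraries, members called higher ranged from 12 to 25 (1 to 3 h), 37 to 67 (3 to 6 h) and 75 to 93 (1 to 6 h). Members called lower ranged from 2 to 6, 1 to 3 and 2 to 4. Lower calls from 1 to 3 h fell to 2 without mock 3 h replicate 1 or without replicate 1 of every group, and to 3 without replicate 2 or 3 of that group. Lower calls from 3 to 6 h fell to 1 without mock 6 h replicate 3, and without replicate 2 or 3 of every group. Counts with a hormone ranged from 58 to 65 (SA), 82 to 88 (ET), 18 to 37 (JA) and 12 to 32 (ABA), and every replicate number left out moved those of JA (22, 18 and 37) and ABA (12, 30 and 32) by over 1.5 times.

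Of the 150 members, 113 were chosen again with TMM-scaled totals, 106 with a minimum of 5 CPM, 99 with medians of replicates, 83 with a pseudocount of 0.1, 22 with a bound of 0.5 and 31 with a bound of 1. With that pseudocount, the 67 members lost all lay outside the bound or under the CPM minimum, and 0 were lost by rank. Leaving out replicates or libraries gave 79 to 149 members chosen again. The highest number was without MeJA 3 h replicate 1, a case also added after seeing the data. The median member change from mock 1 h to 6 h, 0.84, became 0.64 with TMM-scaled totals, 0.97 with a pseudocount of 0.1, and 0.77 to 0.86 without a replicate. Thinning all libraries to 4470356 counts, chosen after seeing the data, gave 0.81.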

Other observations

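The identifiers of the members named 136 scaffolds of the 1358 that carry bounded genes, with at most 3 members on 1 scaffold. By the running number in the identifier, 4 members were numbered next to another member and 10 lay within 5 numbers of another. Among the 150 bounded genes chosen for the lowest mock 12 h level relative to 0 h and 24 h it was 11 and 20 genes. The files give no coordinates, and reads shared between neighbouring copies were not tested.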
